A study of Rattus norvegicus with 24 samples.

Results

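Collagen genes other than Col4a1 and Col4a2 were followed in day 7 skin wounds of diabetic rats. The members were all targets whose symbol is Col, a number, the letter a and a number, without the basement membrane pair Col4a1 and Col4a2, which gave 42 of the 19962 targets measured. Wounds of 3 treatments were profiled: Gel (a hydrogel), CuNZ@Gel (the hydrogel with an addition labelled CuNZ, whose composition the labels do not give) and Sham, for which the labels do not state what was applied. All groups shared the same model: male SD rats made diabetic with STZ (streptozotocin, which destroys insulin-producing cells) at 5 weeks of age, with full-thickness defects of 8 mm held open by splints and sutures. No wound of a non-diabetic rat and no unwounded skin was among the samples used here. Fixed sections were hybridised with tagged probes, areas carrying an immunofluorescent signal were lit by the GeoMx instrument, and the tags released from each area were sequenced. Each treatment had 8 areas, from 2 numbered specimens with 2 regions each and 2 areas, Segment 1 and Segment 2, in each region. Which markers were stained, how the segments differ and whether a specimen is an animal are not stated in the labels, and the word "mac" in them is not spelled out. The p-values therefore reach no further than the spread between these specimens, which may be technical. In limma that spread was drawn strongly towards the spread of other targets of like signal, with a median of 133.5 prior against 3 residual degrees of freedom.

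Collagens are extracellular proteins of 3 alpha chains wound into a triple helix. Fibrillar collagens, chiefly types I and III in skin, form the fibrils that give a healing wound its strength, and type V and XI chains help set the diameter of those fibrils. FACIT collagens sit on fibril surfaces and link them to other matrix molecules, beaded type VI collagen forms fine filaments around cells, network collagens build sheets, and multiplexins lie at basement membranes. In a skin wound most fibrillar collagen is made by fibroblasts and myofibroblasts of the granulation tissue.

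The values were scaled signal per target, and a target was called above background when it exceeded, in at least 4 of the 24 areas, the level that 99% of 1116 targets for olfactory (Olfr) and vomeronasal (Vmn) receptors stayed under in that area. That limit ran from 11.4 to 21.6 (median 14.3). Of the 42 members 13 were above background: 7 of 11 fibrillar (Col1a1, Col1a2, Col3a1, Col5a1, Col5a3, Col11a1, Col24a1), 2 of 9 FACIT (Col12a1, Col14a1), 2 of 8 beaded (Col6a1, Col6a3), 1 of 7 network (Col8a1) and 1 of 2 multiplexin members (Col15a1). Col7a1 and the 4 transmembrane members were not. Because each target has its own probes, and a probe may read rat RNA poorly, the signals of different collagens are not set against each other here, and a low value does not separate a silent gene from a weak probe. The 42 members together took 0.776 to 3.75% of the counts in Gel areas (median 1.96%). That share was 3.05 to 4.04% in CuNZ@Gel areas (median 3.80%) and 3.42 to 8.94% in Sham areas (median 4.22%). Most of it was Col3a1, called in no treatment comparison, with medians of 1.26% in Gel, 2.49% in CuNZ@Gel and 2.75% in Sham.

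Areas differed in depth. Recovered counts ran from 86385 to 1476499 per area, the Segment 2 median being 170040 and the Segment 1 median 533133.5, and the share of targets resting on a single count had a median of 28.5% in Segment 2 and 2.19% in Segment 1. Among cell type markers, 6 of 10 fibroblast, 5 of 10 macrophage and 4 of 8 smooth muscle and pericyte markers were above background, and 0 of 7 keratinocyte, 0 of 6 adipocyte and 0 of 5 cartilage markers were. The summed fibroblast markers lay between 739 and 1912 in Gel areas, between 1558 and 2095 in CuNZ@Gel areas and between 2466 and 3510 in Sham areas, so Sham areas did not overlap with those of either gel. Lum, which is also among the collagen-related genes listed below, made up most of these sums. Its specimen means were 806 and 1225 in Gel, 1190 and 1251 in CuNZ@Gel and 2101 and 2162 in Sham. The markers Pdgfra and Prrx1 were called in no treatment comparison over both segments. The part of the fibroblast markers in the collagen differences below was not tested. Fewer fibroblasts cannot be told apart from less collagen RNA per fibroblast in such areas. The region named 2 in Sham specimen 2 held the highest Sham values of Col1a1, Col1a2, Col3a1, Col5a1, Col11a1, Col12a1 and Col14a1, all in its Segment 1 area. Some of the results below are also given without this region.

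**Figure D1:**
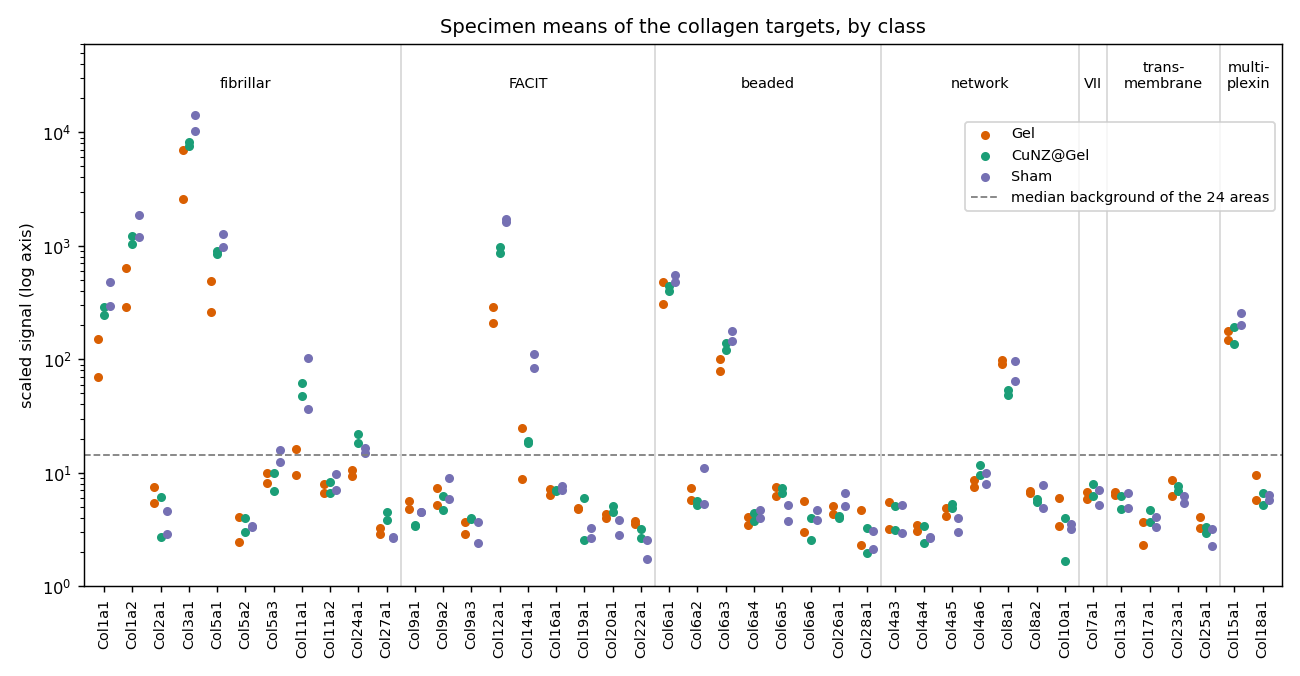
Specimen means of scaled signal (vertical log axis) for the 42 collagen targets, grouped by class along the horizontal axis, with 2 points each for Gel, CuNZ@Gel and Sham. The dashed line is the median background of 14.3, and 29 members never passed the background rule.

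Promoter sequence is shown for 4 members with an entry in the RefSeq table of the rat build GRCr8: Col11a1 and Col24a1, fibrillar genes that were higher in CuNZ@Gel than in Gel in at least 1 test below, and Col6a1 and Col6a3, beaded genes that were both lower in Segment 2. Entries matched 33 of the 42 members. Each run is the 100 bases before the annotated start, read 5′ to 3′ on the gene's strand, at chr2:204509036-204509135 (plus) for Col11a1, chr2:236872534-236872633 (plus, the first of 3 entries) for Col24a1, chr20:11905590-11905689 (plus) for Col6a1 and chr9:98886959-98887058 (minus) for Col6a3. Capitals mark motif matches on either strand.
Col11a1: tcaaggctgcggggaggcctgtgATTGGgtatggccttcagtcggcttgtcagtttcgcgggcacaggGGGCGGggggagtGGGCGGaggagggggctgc
Col24a1: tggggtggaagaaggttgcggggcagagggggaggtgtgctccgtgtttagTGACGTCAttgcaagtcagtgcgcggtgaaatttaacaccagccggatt
Col6a1: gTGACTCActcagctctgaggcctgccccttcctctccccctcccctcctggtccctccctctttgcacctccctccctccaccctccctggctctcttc
Col6a3: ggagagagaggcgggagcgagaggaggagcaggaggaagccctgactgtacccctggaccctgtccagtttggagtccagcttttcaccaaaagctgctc
The motifs searched were CCAAT (17.3% of 27457 rat promoters hold it in the same window), TGANTCA (the AP-1 motif, 2.41%), TGACGTCA (the cAMP response element, 1.15%), GGGCGG (the GC box, 23.1%) and TATAAA (5.95%). Col11a1 held a CCAAT match, printed as its reverse complement, and 2 GGGCGG matches. Col24a1 held TGACGTCA and Col6a1 held TGANTCA, while Col6a3 held none of these letters in this window. The matches differed among the 4 members, and none of the matches printed overlapped another. Among the 8 members called in any test that had an entry, the CCAAT, AP-1 and cAMP response motifs each occurred in 1 and the GC box in 2.

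Gel against Sham asks how wounds under the hydrogel without CuNZ differed from Sham wounds. Collagen signal was lower in Gel wounds for 5 members and higher for none: the FACIT genes Col12a1 and Col14a1, the fibrillar gene Col5a1, the beaded gene Col6a3 and the multiplexin gene Col15a1. Over all 19728 targets tested by limma, 1.8% were lower and 0.618% higher, and among the 5554 targets above background 6.19% were lower and 1.66% higher. At an unadjusted p under 0.05 limma had 2 members higher and 10 lower. Shares over all targets at that threshold were not counted, here or below, so such counts cannot be set against them. On the recovered counts edgeR and DESeq2 called 6 and 3 members lower and 0 higher. Of all targets, in either direction, edgeR called 368 and DESeq2 164. Under quantile normalization limma called 3 members, with Col12a1 and Col6a3 lower and Col8a1 higher in Gel. More members were called by limma whichever specimen was left out, also where both Gel specimens stayed. Over all targets, the number called rose without Gel specimen 2 and fell in the other cases. A fit without a Gel specimen leaves Gel with 1, which is then assumed to vary like the other groups. Calls added in such a fit lack the spread between the Gel specimens. The cause of the rise was not tested. The median log2 difference was -0.61 over the 11 fibrillar members, 0.12 over the 9 FACIT, -0.19 over the 8 beaded and 0.20 over the 7 network members, against -0.03 over all 42 and 0.06 over all targets. Most FACIT, beaded and network members were below background. Over members above background the medians were -1.66 (7 fibrillar), -2.85 (2 FACIT), -0.725 (2 beaded) and 0.23 (1 network). The background rule counts areas of all treatments, and Col5a3 passed it through Sham areas alone. Such a member favours a lower value in Gel, so these medians only describe the members kept. All targets above background had a median of -0.15, which moved to 0.01 under quantile normalization. The collagen differences thus stand beside a general shift of that size.

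CuNZ@Gel against Sham asks the same of the hydrogel with CuNZ, and CuNZ@Gel against Gel asks what accompanied the addition. CuNZ@Gel wounds were lower than Sham wounds for 2 members, Col14a1 and Col12a1, where 0.988% of all targets and 3.47% of those above background were lower. None was called higher in CuNZ@Gel than in Sham, by limma, edgeR or DESeq2, where limma called 0.324% of all targets and 0.864% of those above background, and limma had 0 higher at an unadjusted p under 0.05. Omitting either CuNZ@Gel specimen left 0 calls in that comparison, omitting Sham specimen 1 left 1, and omitting either Gel specimen, which changes the pooled spread alone, gave 5. CuNZ@Gel wounds were higher than Gel wounds for 3 members, Col12a1, Col5a1 and Col24a1, where 0.623% of all targets and 2.16% of those above background were higher, and lower for 1, the network gene Col8a1, where 0.319% and 1.08% were lower. That count of 4 fell when a CuNZ@Gel specimen was left out and rose when a Gel or Sham specimen was. The number called over all targets moved the same way, and each such fit leaves 1 specimen in a treatment. Median differences between CuNZ@Gel and Gel were 1.00 over the fibrillar, 0.04 over the FACIT, -0.07 over the beaded and -0.19 over the network members, against 0.05 over all 42 and -0.02 over all targets. Over members above background the medians between CuNZ@Gel and Gel were 1.35 (fibrillar), 1.29 (FACIT), 0.40 (beaded) and -0.83 (network). All targets above background had a median of -0.003. Both comparisons with Sham share the Sham specimens, and both that involve Gel share the Gel specimens.

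**Figure D2:**
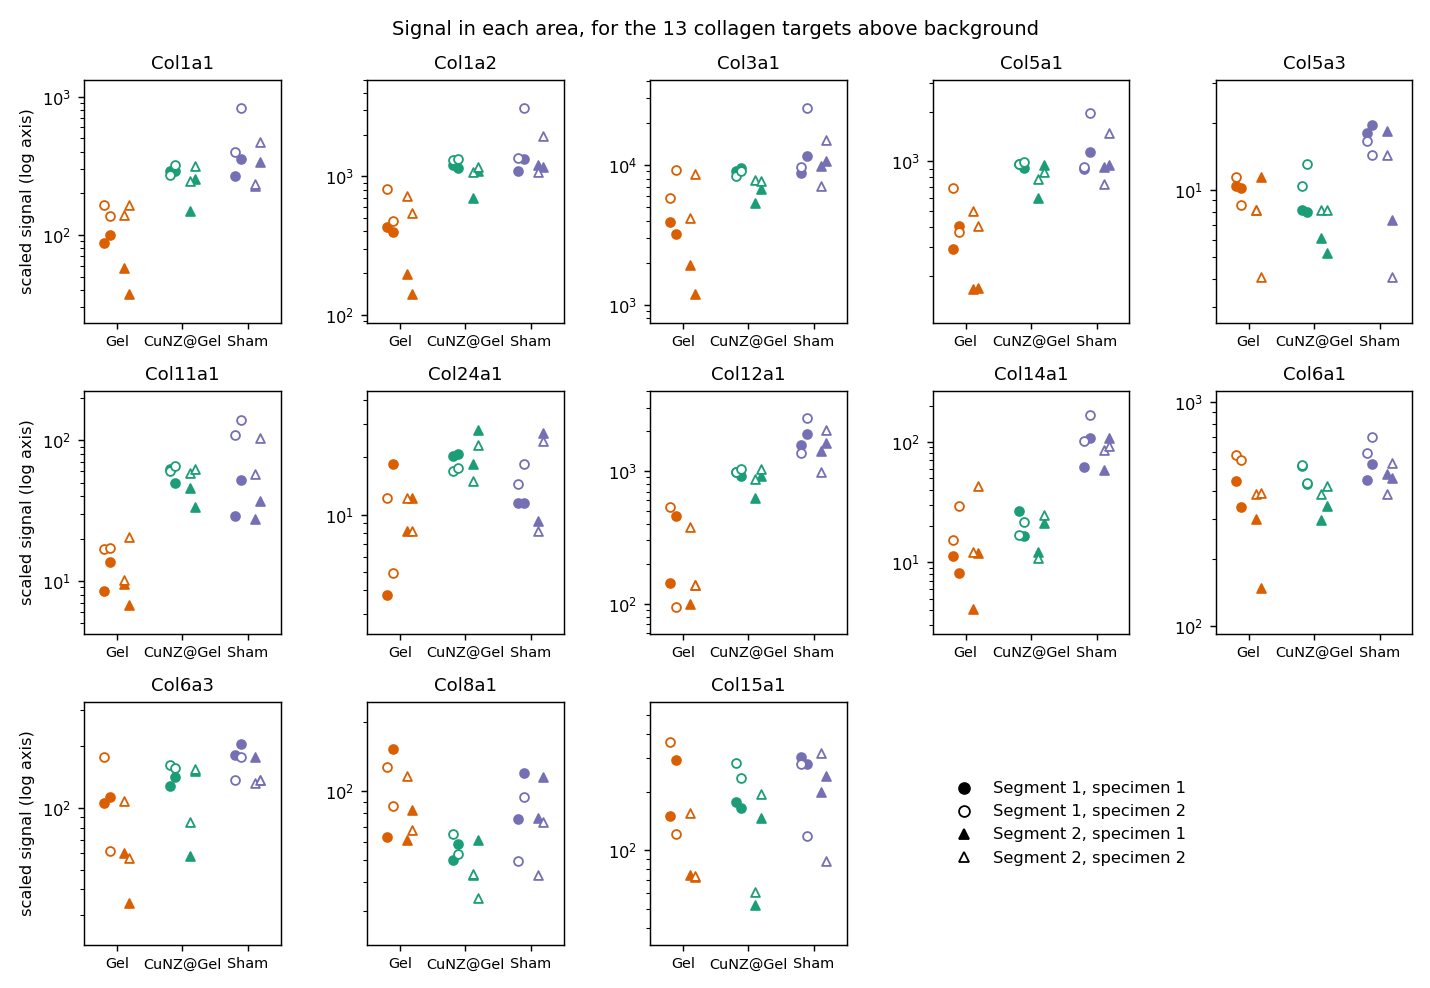
Scaled signal (vertical log axis, 1 panel per gene) in each of the 24 areas for the 13 collagen targets above background, by treatment, with circles for Segment 1, triangles for Segment 2, filled symbols for specimen 1 and open symbols for specimen 2. Col12a1 areas lie between 95.05 and 539 in Gel, between 629 and 1042 in CuNZ@Gel and between 989 and 2516 in Sham.

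Among the fibrillar members, Col1a1 and Col1a2 encode the chains of type I collagen, the main structural collagen of skin. Col1a1 lay between 37.2 and 166 in Gel areas (median 118), between 150 and 320 in CuNZ@Gel areas (median 282) and between 227 and 829 in Sham areas (median 346). Every Gel area was below every Sham area. The specimen means were 70.2 and 151 in Gel, 247 and 288 in CuNZ@Gel and 297 and 483 in Sham. The log2 difference between Gel and Sham was -1.83 (SE 0.48, adjusted p = 0.259) and did not pass in limma, whereas edgeR on recovered counts called it lower. CuNZ@Gel exceeded Gel by 1.38 (SE 0.48, adjusted p = 0.716), also short of the threshold. Without Sham specimen 2 region 2, limma called Col1a1 lower in Gel.

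Col1a2 behaved alike across the areas, from 140 to 810 in Gel (median 454), 696 to 1346 in CuNZ@Gel (median 1156) and 1083 to 3128 in Sham (median 1272), again with no overlap between Gel and Sham. Its difference between Gel and Sham was -1.83 (SE 0.51, adjusted p = 0.315). Its difference between CuNZ@Gel and Sham was -0.37 (SE 0.51, adjusted p = 0.876). The area of Sham specimen 2 region 2 in Segment 1 stood at 3128, above the 1089 to 1348 of the other Sham Segment 1 areas.

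Col3a1, whose product forms the type III fibrils typical of early granulation tissue, was far apart in the Gel specimens. Its specimen means were 2560 and 6949 in Gel, 7645 and 8218 in CuNZ@Gel and 10228 and 14316 in Sham. Areas ran from 1193 to 9164 in Gel, from 5313 to 9470 in CuNZ@Gel and from 7023 to 25513 in Sham, so Gel and Sham overlapped. Neither the difference between Gel and Sham (-1.54, SE 0.60, adjusted p = 0.479) nor that between CuNZ@Gel and Gel (1.00, SE 0.60, adjusted p = 0.946) passed.

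Col5a1 encodes a chain of type V collagen, which is built into type I fibrils. Its signal lay between 168 and 689 in Gel areas (median 387), between 598 and 988 in CuNZ@Gel areas (median 931) and between 726 and 1959 in Sham areas (median 935). Every Gel area was below every Sham area, while CuNZ@Gel and Sham areas overlapped. Col5a1 fell in Gel against Sham by 1.66 on the log2 scale (SE 0.21, adjusted p = 2.34e-06) and was higher in CuNZ@Gel than in Gel by 1.35 (SE 0.21, adjusted p = 0.000153). CuNZ@Gel and Sham differed by -0.31 (SE 0.21, adjusted p = 0.664). These tests used an SD of 0.213, drawn towards that of other targets, against 0.418 among its own specimens, DESeq2 on recovered counts made neither call, edgeR did not make the one against Gel, and quantile normalization lost both (adjusted p = 0.172 for Gel against Sham).

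The partner chain gene Col5a2, a neighbour of Col3a1 in the genome, was above background in 0 areas, with specimen means between 2.47 and 4.08 in all treatments. The minor fibrillar gene Col11a1, better known from cartilage, stood close to the background in Gel wounds. Its areas ran from 6.77 to 20.4 in Gel (median 11.9), from 33.3 to 65.9 in CuNZ@Gel (median 59.5) and from 27.6 to 140 in Sham (median 54.6), and Gel did not overlap with either of the others. It was above background in 3 of 8 Gel areas and in all 8 of each other treatment. The differences over both segments, -2.19 between Gel and Sham (SE 0.63, adjusted p = 0.335) and 2.06 between CuNZ@Gel and Gel (SE 0.63, adjusted p = 0.682), did not pass in limma. Both edgeR and DESeq2 called the first. The cartilage markers Acan, Sox9, Matn3, Hapln1 and Cnmd were above background in 0 areas.

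Col24a1, a fibrillar collagen gene best known from developing bone, was higher in CuNZ@Gel than in Gel by 1.04 (SE 0.24, adjusted p = 0.00589). Its specimen means were 21.9 and 18.2 in CuNZ@Gel, against 10.7 and 9.40 in Gel, while Sham specimens stood at 14.8 and 16.4. It was above background in 7 of 8 CuNZ@Gel areas, 2 of 8 Gel areas and 4 of 8 Sham areas, so these values lie at the limit of detection. Without CuNZ@Gel specimen 1 the difference was 0.91 and was not called (adjusted p = 0.302).

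Col5a3, a less common type V chain gene, was above background in 5 Sham areas alone. Its areas ran from 4.09 to 11.4 in Gel (median 9.40), from 5.26 to 13.03 in CuNZ@Gel (median 8.18) and from 4.09 to 19.5 in Sham (median 15.5), and the treatments overlapped. It was called in no test; the difference from Sham was -0.51 for Gel (SE 0.27, adjusted p = 0.455) and -0.59 for CuNZ@Gel (SE 0.27, adjusted p = 0.399).

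The FACIT gene Col12a1, whose product binds type I fibrils in tissues under tension, was called in all 3 treatment comparisons. Its areas lay between 95.05 and 539 in Gel (median 141), between 629 and 1042 in CuNZ@Gel (median 954) and between 989 and 2516 in Sham (median 1607). Every Gel area was below every CuNZ@Gel area and every Sham area. The specimen means were 209 and 288 in Gel, 864 and 981 in CuNZ@Gel and 1637 and 1726 in Sham, or 248 ± 55.5, 923 ± 82.5 and 1682 ± 62.8 (SD, n = 2 each). Col12a1 fell in Gel against Sham by 3.02 (SE 0.18, adjusted p = 1.44e-32) and was higher in CuNZ@Gel than in Gel by 2.19 (SE 0.18, adjusted p = 7.17e-21), and all 18 alternatives run kept both calls.

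CuNZ@Gel wounds had less Col12a1 than Sham wounds by 0.83 on the log2 scale (SE 0.18, adjusted p = 0.00145). That call was lost under 10 of 18 alternatives. Without Sham specimen 1 the adjusted p was 0.121, without Sham specimen 2 it was 0.0504, without CuNZ@Gel specimen 1 it was 0.404, and without CuNZ@Gel specimen 2 it was 0.127. Leaving out both areas of Sham specimen 2 region 2 gave a difference of -0.59 (adjusted p = 0.1).

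Col14a1, the other FACIT gene above background, encodes a fibril-surface collagen expressed by dermal fibroblasts. It was low in both gels. Areas ran from 4.09 to 42.9 in Gel (median 12.1), from 10.9 to 26.6 in CuNZ@Gel (median 19.0) and from 58.3 to 165 in Sham (median 96.6), so that no area of either gel reached the lowest Sham area. It was above background in 3 of 8 Gel areas, 6 of 8 CuNZ@Gel areas and 8 of 8 Sham areas. The differences from Sham were -2.68 for Gel (SE 0.36, adjusted p = 0.00292) and -2.30 for CuNZ@Gel (SE 0.36, adjusted p = 0.0156). CuNZ@Gel and Gel differed by 0.38 (SE 0.36, adjusted p = 0.973). Both calls, but not the size of the differences, changed when the Segment 2 area of Gel specimen 1 region 2 was left out. Without it the differences from Sham were -2.76 for Gel (adjusted p = 0.142) and -2.30 for CuNZ@Gel (adjusted p = 0.248). The CuNZ@Gel call was also lost without either CuNZ@Gel specimen (adjusted p = 0.236 each). Quantile normalization also lost both calls. Erythroid signal was also low in both gels: summed haemoglobin and other erythroid markers (2 of 4 above background) lay between 20.4 and 85.8 in Gel areas, between 21.0 and 203 in CuNZ@Gel areas and between 597 and 1804 in Sham areas. Whether they vary together with Col14a1, and their part in its result, was not tested.

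Col16a1, another FACIT gene, was above background in 0 areas. Its treatment means were 6.76 ± 0.598 in Gel, 6.97 ± 0.0825 in CuNZ@Gel and 7.34 ± 0.423 in Sham (SD, n = 2 each).

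Counted over areas, 6 members had every Gel area below every Sham area (Col1a1, Col1a2, Col5a1, Col11a1, Col12a1 and Col14a1), where 0.639% of all targets and 2.23% of those above background did. Col14a1 was the 1 member with every CuNZ@Gel area below every Sham area (0.75% of all targets, 2.63% above background). Col11a1 and Col12a1 were the 2 with every CuNZ@Gel area above every Gel area (0.198% and 0.684%). In the opposite direction 0 members separated, where 0.0963% of all targets and 0.306% of those above background did for Gel against Sham, 0.147% and 0.324% for CuNZ@Gel against Sham, and 0.0811% and 0.288% for CuNZ@Gel against Gel. Areas of 1 specimen are not independent, so these counts describe the areas.

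**Figure D3:**
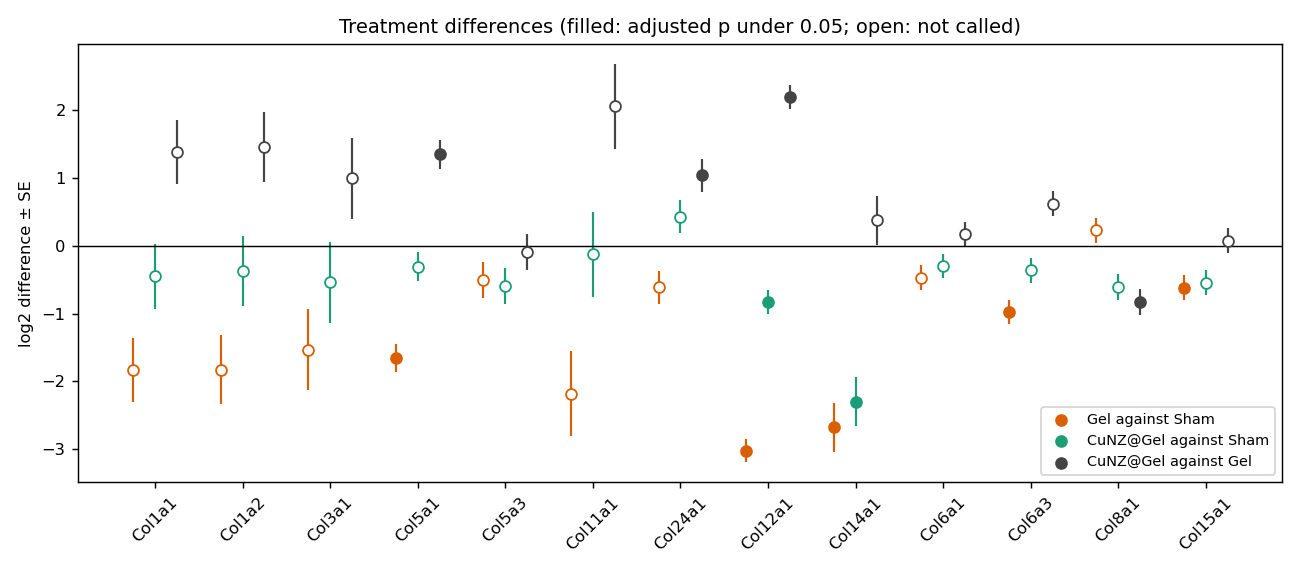
Log2 differences with their SE (vertical axis) for the 13 collagen targets above background in Gel against Sham, CuNZ@Gel against Sham and CuNZ@Gel against Gel, with filled points for adjusted p under 0.05. Col12a1 is filled in all 3 comparisons and Col14a1 in both against Sham, while Col1a1, Col1a2 and Col3a1 are open throughout.

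The beaded genes Col6a1 and Col6a3 encode chains of type VI collagen. Col6a3 had specimen means of 78.4 and 101.5 in Gel, 120 and 140 in CuNZ@Gel and 176 and 146 in Sham. It fell in Gel against Sham by 0.98 (SE 0.18, adjusted p = 6.4e-05), a call that edgeR and DESeq2 did not make, and its areas overlapped. The difference of 0.62 between CuNZ@Gel and Gel did not pass (SE 0.18, adjusted p = 0.0886). Col6a1 differed less: 308 and 478 in Gel, 398 and 442 in CuNZ@Gel, and 478 and 554 in Sham, with a difference of -0.47 between Gel and Sham (SE 0.18, adjusted p = 0.202). Col6a2, the third chain of the usual type VI molecule and a genomic neighbour of Col6a1, was above background in 1 area, with treatment means of 6.55 ± 1.07 in Gel, 5.46 ± 0.336 in CuNZ@Gel and 8.15 ± 4.08 in Sham (SD, n = 2 each).

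Col8a1 encodes a network-forming collagen of vessel walls and remodelling matrix. Its specimen means were 53.2 and 48.9 in CuNZ@Gel, 90.2 and 99.3 in Gel, and 97.0 and 64.9 in Sham. It was lower in CuNZ@Gel than in Gel by 0.83 (SE 0.19, adjusted p = 0.00445). The call was not made by edgeR or DESeq2, and it was lost without CuNZ@Gel specimen 1 (adjusted p = 0.0957) or 2 (adjusted p = 0.371). CuNZ@Gel areas, from 34.1 to 65.1, overlapped with Gel areas, from 61.3 to 153, only between 61.3 and 65.1.

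Col15a1 encodes a multiplexin that bridges basement membranes and the underlying matrix. Its specimen means were 148 and 178 in Gel, 136 and 194 in CuNZ@Gel and 256 and 201 in Sham. The log2 difference between Gel and Sham was -0.62 (SE 0.18, adjusted p = 0.0447), just past the threshold. It was lost under 14 of 18 alternatives, among them the omission of Sham specimen 1 (-0.35, adjusted p = 0.831), Gel specimen 1 (-0.49, adjusted p = 0.261), CuNZ@Gel specimen 1 (adjusted p = 0.141) and CuNZ@Gel specimen 2 (adjusted p = 0.138). It was lost too without the Segment 2 area of Gel specimen 1 region 2 (adjusted p = 0.0959). Without Sham specimen 2 region 2, where Col15a1 was lowest among Sham areas, the difference was -1.001 (adjusted p = 6.25e-05).

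The other 29 members had area signals between 0.613 and 19.6 (median 4.09); 25 were above background in 0 areas and 4 in 1. None of them was called in any treatment or segment test, and their differences ran from -0.26 to 0.72 between Gel and Sham, from -0.51 to 0.55 between CuNZ@Gel and Sham and from -0.58 to 0.39 between CuNZ@Gel and Gel. Col7a1, the anchoring fibril collagen that ties epidermis to dermis, averaged 6.35 ± 0.581 in Gel, 7.13 ± 1.28 in CuNZ@Gel and 6.18 ± 1.32 in Sham. Col17a1, a transmembrane collagen of basal keratinocytes, averaged 2.99 ± 0.947 in Gel, 4.17 ± 0.712 in CuNZ@Gel and 3.73 ± 0.515 in Sham. Col18a1, the other multiplexin and the source of endostatin, averaged 7.69 ± 2.71 in Gel, 5.90 ± 0.988 in CuNZ@Gel and 6.08 ± 0.470 in Sham (SD, n = 2 each). Differences among such values were not detectable at this depth and background.

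The treatments were also compared within single segments. In Segment 1, limma called 5 members lower in Gel than in Sham (Col12a1, Col14a1, Col1a2, Col5a1 and Col6a3), where 1.33% of all targets and 4.54% of those above background were lower, and 0.512% and 1.58% higher. Col12a1 differed by -2.89 (SE 0.15, adjusted p = 3.32e-24) and Col1a2 by -1.63 (SE 0.26, adjusted p = 0.0125). The Col1a2 call was lost without Gel specimen 1 (adjusted p = 0.688) or Gel specimen 2 (adjusted p = 0.254), and the Col6a3 call (-0.69, adjusted p = 0.0124) without Sham specimen 1 (adjusted p = 0.49), CuNZ@Gel specimen 1 (adjusted p = 0.0744) or CuNZ@Gel specimen 2 (adjusted p = 0.073). In Segment 2, 7 members were lower in Gel: Col12a1, Col14a1, Col11a1, Col1a1, Col5a1, Col6a3 and Col15a1, where 1.32% of all targets and 4.66% of those above background were lower, and 0.243% and 0.774% higher.

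Col1a1 in Segment 2 lay at 57.2, 37.2, 139 and 164 in Gel areas, against 227, 336, 235 and 470 in Sham areas. The log2 difference there was -1.85 (SE 0.25, adjusted p = 1.04e-09), with an SD of 0.248 used against 0.725 among its own specimens, and with quantile normalization or with targets above background alone it was not called. In Segment 1 its difference of -1.82 did not pass (SE 0.35, adjusted p = 0.0973). The interaction of treatment and segment was not called for Col1a1 (adjusted p = 0.99), so the segments were not shown to differ. Col11a1 fell in Segment 2 by 2.10 (SE 0.31, adjusted p = 6.16e-09), with areas of 9.54, 6.77, 10.2 and 20.4 in Gel, against 27.6, 36.8, 57.2 and 104 in Sham. Its interaction was not called either (adjusted p = 0.987). The Segment 2 falls of Col15a1 (-1.10, adjusted p = 0.000997) and Col6a3 (-1.27, adjusted p = 8.98e-05) were each lost without Sham specimen 1 (adjusted p = 0.33 for Col15a1 and 0.0605 for Col6a3) and without Gel specimen 1 (adjusted p = 0.167 for Col15a1 and 0.148 for Col6a3).

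CuNZ@Gel was lower than Sham in Segment 1 for Col14a1 (-2.30, SE 0.33, adjusted p = 0.00905) and Col12a1 (-0.87, SE 0.15, adjusted p = 0.000195), where 0.674% of all targets and 2.29% of those above background were lower, and 0.299% and 0.9% higher. In Segment 2 Col14a1 (-2.30, adjusted p = 1.36e-09), Col15a1 (-0.96, adjusted p = 0.022) and Col12a1 (-0.79, adjusted p = 0.0264) were lower, where 0.471% of all targets and 1.67% of those above background were lower, and 0.117% and 0.378% higher. The Col12a1 call in Segment 1 was lost without CuNZ@Gel specimen 1 (adjusted p = 0.167) or 2 (adjusted p = 0.182), and the Col14a1 call there without CuNZ@Gel specimen 2 (adjusted p = 0.0555). In Segment 2 the Col12a1 and Col15a1 calls were lost whenever a Sham or CuNZ@Gel specimen was omitted, with adjusted p between 0.0939 and 0.774 for Col12a1 and between 0.061 and 0.8 for Col15a1. Without Sham specimen 2 region 2 the Segment 2 difference of Col12a1 was -0.53 (adjusted p = 0.461).

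CuNZ@Gel was higher than Gel in Segment 1 for Col12a1 (2.02, adjusted p = 3.01e-16), Col5a1 (1.19, adjusted p = 2.19e-06) and Col24a1 (1.11, adjusted p = 0.00433) and lower for Col8a1 (-0.84, adjusted p = 0.00371), where 0.542% of all targets and 1.78% of those above background were higher, and 0.218% and 0.774% lower. In Segment 2 it was higher for Col12a1 (2.37, adjusted p = 8.59e-27), Col11a1 (2.07, adjusted p = 2.47e-08), Col5a1 (1.51, adjusted p = 4.63e-10) and Col1a1 (1.47, adjusted p = 6.87e-06), where 0.466% of all targets and 1.62% of those above background were higher, and 0.137% and 0.468% lower. The Segment 1 calls of Col24a1 and Col8a1 were lost without CuNZ@Gel specimen 1 (adjusted p = 0.195 for Col24a1 and 0.25 for Col8a1), and that of Col8a1 also without CuNZ@Gel specimen 2 (adjusted p = 0.17). The Segment 2 call of Col1a1 was lost without Gel specimen 1, where the difference was 0.62 (adjusted p = 0.578).

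Segment 2 was compared with Segment 1 within specimens, over all treatments. Col15a1, Col6a3, Col6a1 and Col5a1 were lower in Segment 2, and 0 members were higher by limma, edgeR or DESeq2 (1 at an unadjusted p under 0.05 by limma). Among all targets 2.14% were lower and 0.39% higher, and among those above background 7.44% were lower and 0.018% higher. The differences were -0.86 for Col15a1 (SE 0.08, adjusted p = 2.93e-12), -0.53 for Col6a3 (SE 0.09, adjusted p = 6.56e-05), -0.46 for Col6a1 (SE 0.06, adjusted p = 8.56e-07) and -0.37 for Col5a1 (SE 0.08, adjusted p = 0.0268). Segment 2 was the lower of the pair in 11 of 12 regions for Col15a1, Col6a3 and Col6a1 and in 9 of 12 for Col5a1. Of the 5554 targets above background, 4921 had a negative difference, with a median of -0.197. The collagen falls and region counts thus stand beside a general shift. Under quantile normalization the Col5a1 call was lost, and 146 of all targets were called, against 499 without it. The Col5a1 call was lost without Sham specimen 2 (adjusted p = 0.0508), CuNZ@Gel specimen 1 (adjusted p = 0.531), CuNZ@Gel specimen 2 (adjusted p = 0.434) or Gel specimen 1 (adjusted p = 0.0597). Segment 2 areas were shallower, and with counts thinned to the shallowest area 7 members were lower; 7 were called without Gel specimen 2. Col4a1, the basement membrane gene left out of the members, was lower in Segment 2 by 1.00.

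Col15a1 was the 1 member whose treatment differences differed between segments by the interaction test (adjusted p = 0.0295; 0.0507% of all targets and 0.18% of those above background were called). Its Segment 2 areas stood at 74.9, 72.7, 155 and 73.6 in Gel, at 52.1, 147, 61.3 and 195 in CuNZ@Gel and at 199, 243, 317 and 87.9 in Sham. The Segment 1 areas stood at 150, 293, 364 and 121 in Gel, at 179, 166, 284 and 236 in CuNZ@Gel and at 303, 279, 280 and 119 in Sham. Segment 2 minus Segment 1 was -1.23 in Gel, -1.10 in CuNZ@Gel and -0.27 in Sham (SE 0.14 each). The call was lost under 10 of 16 alternatives, among them the omission of Sham specimen 1 (adjusted p = 1), Sham specimen 2 (adjusted p = 0.745), Gel specimen 1 (adjusted p = 0.511) and the Segment 2 area of Gel specimen 1 region 2 (adjusted p = 0.0546). It was kept without Sham specimen 2 region 2 (adjusted p = 0.000586), and without Gel specimen 2 the test called 4 members.

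**Figure D4:**
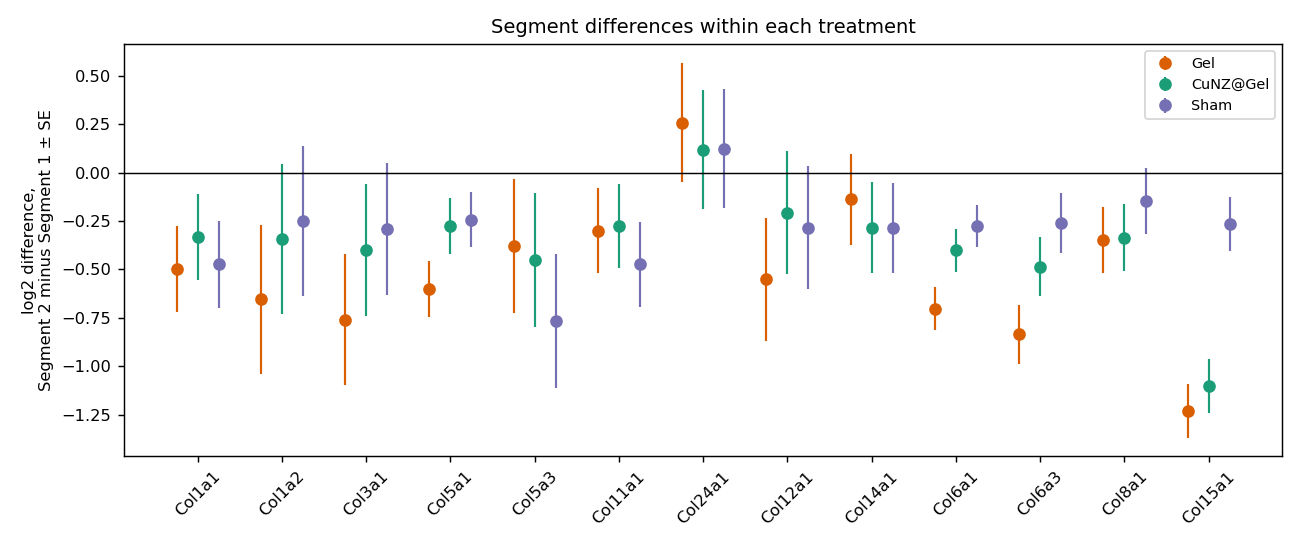
Log2 differences between Segment 2 and Segment 1 with their SE (vertical axis) for the 13 collagen targets above background, within Gel, CuNZ@Gel and Sham. Col15a1 lies at -1.23 in Gel, -1.10 in CuNZ@Gel and -0.27 in Sham, and Col24a1 is the only target above 0 in all 3.

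Genes that modify, export, process, crosslink and bind collagen were read from a list of 48, all of them tested. In Gel against Sham 13 were lower and 0 higher by limma (3 higher and 19 lower at an unadjusted p under 0.05), beside 1.8% lower among all targets and 6.19% among those above background. They included Itga11, a collagen-binding integrin chain (-3.58), Thbs2, a matrix protein that affects fibril shape (-2.96), Plod2, a lysyl hydroxylase that sets crosslinks (-1.74), Fn1, fibronectin (-1.56), and Lum, a fibril-binding proteoglycan (-1.13). Loxl2 (-0.98) and Loxl1 (-0.76), which crosslink collagen, Serpinh1, the collagen chaperone HSP47 (-0.87), Bmp1, a procollagen protease (-0.68), its enhancer Pcolce (-0.84), and Ppib (-0.77), P3h1 (-0.76) and Sparc (-0.97) were also lower. In CuNZ@Gel against Sham 4 were lower and 0 higher (3 higher at an unadjusted p under 0.05), beside 0.988% of all targets and 3.47% of those above background: Itga11 (-1.87), Thbs2 (-0.88), Lum (-0.80) and Bmp1 (-0.76).

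CuNZ@Gel exceeded Gel for 8 of the 48 and was lower for 0 (1 at an unadjusted p under 0.05), beside 0.623% higher among all targets and 2.16% among those above background: Thbs2 (2.07), Itga11 (1.70), Plod2 (1.69), Fn1 (1.38), Loxl2 (1.16), the prolyl hydroxylase gene P4ha1 (0.84), the lysyl oxidase gene Lox (0.82) and Serpinh1 (0.79). In Segment 2 against Segment 1, 10 were lower and 0 higher (1 at an unadjusted p under 0.05), beside 2.14% lower among all targets and 7.44% among those above background. Lower genes included Loxl2 (-0.51) and Itgb1, the partner of Itga11 (-0.41).

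Itga11 had specimen means of 7.64 and 9.90 in Gel, 33.8 and 29.3 in CuNZ@Gel and 112 and 125 in Sham, an order of treatments like that of Col12a1. Among the fibroblast markers, Fap (-1.32), Mfap5 (-1.48) and Lum (-1.13) were lower in Gel than in Sham, and Mfap5 was higher in CuNZ@Gel than in Gel by 1.48. Pdgfra, a general fibroblast marker, differed by -0.41 between Gel and Sham (SE 0.20, adjusted p = 0.367) and by 0.03 between CuNZ@Gel and Gel (SE 0.20, adjusted p = 0.999). Prrx1, another, differed between Gel and Sham by 0.47 in Segment 1 (SE 0.17, adjusted p = 0.177) and by -0.46 in Segment 2 (SE 0.24, adjusted p = 0.562), and its interaction of treatment and segment was called (adjusted p = 0.048). Smooth muscle and pericyte markers summed to between 53.1 and 390 in Gel areas, between 354 and 749 in CuNZ@Gel areas and between 607 and 1121 in Sham areas, with Myh11, Cnn1 and Des above background in 0 areas. Acta2 was the largest part of these sums and was called in no treatment comparison (-3.43 in Gel against Sham, SE 0.92, adjusted p = 0.316). Tagln was lower in Gel than in Sham (-3.01) and higher in CuNZ@Gel than in Gel (2.39). Cspg4 followed another order, with specimen means of 9.81 and 22.7 in Gel, 26.5 and 19.0 in CuNZ@Gel and 13.3 and 11.5 in Sham. The part of smooth muscle cells and pericytes in the collagen differences was not tested.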

How the data were processed

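Scaled signal was measured for 19962 targets and 1 negative probe in each of 24 areas. The deposited signal values had been scaled by the authors, their upper quartiles lying between 12.1 and 12.3, and how they counted and scaled is not given in the sources used here. Dividing by each area's smallest value gave whole counts (tolerance 0.01) for 99.98 to 99.995% of values.

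The 19728 targets that exceeded the negative probe's signal in 4 or more areas were tested. Log2(signal + 1) was averaged per specimen, or per specimen and segment, and tested with limma 3.58.1 in R 4.3.3 (trend and robust, Benjamini-Hochberg over all targets tested, threshold 0.05), with the specimen as a block for segments. Fold changes on this scale understate changes of low targets. edgeR 4.0.16 on the recovered counts called 368, 181 and 160 targets in Gel against Sham, CuNZ@Gel against Sham and CuNZ@Gel against Gel, and DESeq2 1.42.0 called 164, 64 and 57. Data of 5554 targets were simulated with the same noise for every target and 100 changed by 2 log2 units. On these, limma recovered all 100. It called 4 unchanged targets in Gel against Sham, 5 in CuNZ@Gel against Gel and 8 in Segment 2 against Segment 1. Measured targets differed in their spread, so these counts do not give the power or error rate in the real data.

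The members and lists were chosen with earlier results of these data known. Full values are given for every member past the threshold in any test and for a fixed set of skin collagens, and counts and ranges for the others. Symbols follow the files.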

Additional observations from a re-analysis of the deposited data

Results flagged for a closer look

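In 4 of 54 groups of 8 areas, a single area lay far from the others of its treatment. The limit used marks about 1 group in 20 by chance when areas are independent. Areas here share specimens and differ in segment, and all genes were read in the same areas, so that rate does not apply. In all 4 groups it was the Segment 2 area of CuNZ@Gel specimen 1 region 1, the shallowest of the study with 86385 counts. Its signal was 150.236 for Col1a1, 695.9915 for Col1a2, 597.8781 for Col5a1 and 628.5385 for Col12a1, in each case the lowest of the CuNZ@Gel areas. The part of depth in these values was not tested.

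The difference between Segment 2 and Segment 1 varied with treatment for Col15a1 in the limma interaction test (adjusted p = 0.0295): it was -1.23 in Gel, -1.10 in CuNZ@Gel and -0.27 in Sham (SE 0.14 each).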

How the results depend on the processing

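Of 41 calls on single collagen genes over all comparisons, 8 held under every alternative run, 33 were lost under at least 1 and 0 reversed. A specimen left out leaves its treatment with 1, assumed to vary like the others. The cause of lost calls was not tested. Alternatives that remove samples or targets can change the estimates, the spread used and the adjusted p together. Calls over all targets moved too. In Gel against Sham they numbered 478, and 398 under quantile normalization, 715 with areas as samples and 164 by DESeq2. In Segment 2 against Segment 1 they numbered 499, and 95 with thinned counts, 215 with areas as samples and 434 by edgeR. There DESeq2 called 69, and limma without trend and robust 0. The interaction had 10, and 0 with areas as samples, limma without trend and robust or no replicate block. Gel against Sham had 5 members called, and 3 under quantile normalization (2 lower and Col8a1 higher), 8 with areas as samples, 3 by DESeq2, 3 without the Segment 2 area of Gel specimen 1 region 2, and 6 to 10 with 1 specimen left out. CuNZ@Gel against Sham had 2 called, and 1 with only targets above background, quantile normalization, thinned counts, areas as samples, limma without trend and robust, edgeR, DESeq2 or without that Gel area, and 0 to 5 with 1 specimen left out. CuNZ@Gel against Gel had 4 called, and 7 with areas as samples, 1 by DESeq2 and 2 to 10 with 1 specimen left out. In Segment 1, Gel against Sham (5) had 3 under quantile normalization, 2 by limma without trend and robust and 4 to 7 with 1 specimen left out; CuNZ@Gel against Sham (2) had 1 under quantile normalization, 1 with areas as samples, 0 by limma without trend and robust and 0 to 4; CuNZ@Gel against Gel (4) had 0 with areas as samples, 1 by limma without trend and robust and 3 to 7. In Segment 2, Gel against Sham (7) had 3 by limma without trend and robust and 6 to 10 with 1 specimen left out. CuNZ@Gel against Sham in Segment 2 (3) had 1 with only targets above background, quantile normalization or areas as samples, 0 by limma without trend and robust and 1 to 4, and CuNZ@Gel against Gel (4) had 1 by limma without trend and robust and 3 to 7. Segment 2 against Segment 1 (4) had 7 with thinned counts, 0 with areas as samples or limma without trend and robust, 8 by edgeR, 2 by DESeq2, 2 with no replicate block and 3 to 7 with 1 specimen left out. The interaction (1) had 0 with a pseudocount of 5, only targets above background, quantile normalization, areas as samples, limma without trend and robust, no replicate block or without that Gel area, and 0 to 4 with 1 specimen left out.

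Specimen numbers did not pair the treatments (correlations of same-numbered deviations of -0.032, 0.004 and -0.025). With the replicate block, 8 members were called in Gel against Sham, 7 in CuNZ@Gel against Gel, and in Segment 1 8 in each of these comparisons. The omission of Sham specimen 2 region 2 or of the Segment 2 area of Gel specimen 1 region 2, and limma without trend and robust within segments, were chosen after seeing the data. Without Sham specimen 2 region 2, limma called 7 members in Gel against Sham, 2 in CuNZ@Gel against Sham and 5 in CuNZ@Gel against Gel. Over all targets it then called 400, 228 and 170. Segment 2 depth limits what low members can show there.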
